A study of Bos taurus with 21 samples.

Results

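The Holstein cows at both ends of the breeding value of milk yield were compared, namely the 4 cows above 300 and the 4 cows below -200. These 8 cows came from 21 whose milk somatic cells were profiled by RNA-seq, and the other 13 lay between the limits. The cows had been kept on a single farm and were sampled from milk, and each library came from a separate animal. No cow was treated, and the comparison asks which genes differ where the trait differs most. The groups differed in the predicted genetic merit of the animal, for which the labels give no unit.

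The upper cows were 2920, 3057, 3064 and 3280, all of the high yielding group (HY), with breeding values of 321.152, 459.059, 468.053 and 303.717. The lower cows were 2893, 3135, 3369 and 3407, all of the low yielding group (LY), with -368.867, -211.109, -404.27 and -364.095. HY and LY had been assigned by the study from a national production index. Parity was 2 in 3 cows and 4 in the remaining cow of each group. The lactation period was 108 to 265 days in the upper cows and 52 to 200 days in the lower cows, with medians of 194 and 69 days; the labels give no unit, and days are assumed. Breeding values of fat (-1.84 to 10.928 against -14.377 to -4.773), protein (6.302 to 14.589 against -13.24 to -7.584) and solids (23.9 to 41.4 against -29.9 to 7.4) also did not overlap between the groups. Milk yield therefore cannot be told apart from these other traits in this comparison.

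Milk somatic cells are mostly leukocytes that have passed into the milk (macrophages, neutrophils and lymphocytes), together with epithelial cells shed from the alveoli and ducts. Secretory epithelium makes the caseins and whey proteins, and its transcripts can dominate a milk library even when leukocytes are common. The breeding value is a property of the animal's genes for production, whereas the RNA is a snapshot of the cells in a milking. In bulk RNA, fewer cells of a type and less RNA per cell cannot be told apart.

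Counts on genes ranged from 10217225 to 19213193 in the upper cows and from 9341401 to 28541904 in the lower cows. Leukocyte transcripts were present in all 8 libraries. In CPM, read counts scaled to the size of each library with the TMM factors of edgeR, summed macrophage markers were 2489 to 12931 in the upper and 4423 to 6617 in the lower cows, and summed neutrophil markers were 2377 to 6813 and 3970 to 9662. T cell markers summed to 117 to 1274 and 185 to 855 CPM. Red cell markers did not exceed 0.118 and 0.346 CPM, and the neutrophil gene CXCR1 and the cytotoxic gene GZMB had a count in none of the 21 cows. No 2 of the 8 libraries were alike within sampling noise, with a lowest chi-square per degree of freedom of 75.5.

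The library of upper cow 3280 stood apart from the others. The 7 milk protein genes measured (the caseins CSN1S1, CSN1S2, CSN2 and CSN3, alpha-lactalbumin LALBA, the whey protein gene PAEP, and GLYCAM1) took 56.4% of its counts on genes. They took 0.488% in cow 3057, 3.42% in cow 2920 and 5.58% in cow 3064. In the lower cows they took 11.4% in 3407, 14.7% in 3135, 32.0% in 2893 and 35.9% in 3369. Thus 3 upper cows lay below every lower cow and the remaining upper cow lay above all of them. The 95% binomial (Clopper-Pearson) limits were at most 0.032 percentage points from these shares and cover counting error only. The mean Spearman correlation of a library with the other 7 was 0.808 for cow 3280 and 0.821 for lower cow 2893, against 0.877 to 0.917 for the other cows. Results are given below with and without cow 3280.

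**Figure D1:**
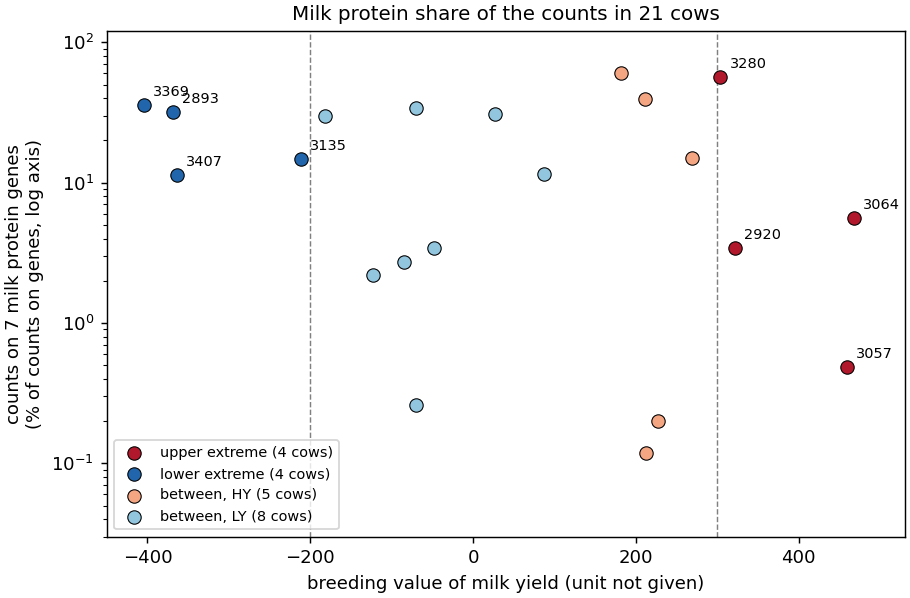
Share of the counts on genes taken by 7 milk protein genes (percent, log axis) against the breeding value of milk yield, 1 point per cow, with dashed lines at the limits of 300 and -200. The 3 upper cows 2920, 3057 and 3064 lie at 0.488% to 5.58%, under the lower cows at 11.4% to 35.9%, while cow 3280 lies at 56.4%; the cows between spread over nearly the whole range on both sides.

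The cows between showed the same breadth without the same order. The share was 0.118% to 60.4% in the 5 HY cows between, with a median of 15.1%, and 0.259% to 34.3% in the 8 LY cows between, with a median of 7.5%. Cow 3262, an HY cow between, had the 60.4%, and the cow nearest to it in the same group had 39.5%. The 2 lowest shares of all 21 cows, 0.118% in cow 3235 and 0.201% in cow 2814, belonged to HY cows between as well.

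Gene by gene, the upper and lower cows were compared with the edgeR quasi-likelihood test over 9328 genes. An adjusted p of 0.05 was passed by 0 genes (0%), the lowest being 0.99997. An unadjusted p under 0.05 was found for 92 genes (0.986%), a smaller share than the 0.05 expected where no gene differs. Of these, 38 were higher (0.407%) and 54 lower (0.579%) in the upper cows. All counts of genes with p under 0.05 below are unadjusted. Those from all upper and lower cows together are read against these percentages. Counts without cow 3280 are read against 3.12% of genes higher and 6.52% lower in the upper cows. For the cows between, the percentages are 1.44% higher and 1.52% lower in HY. DESeq2 on the same genes gave 174 genes with p under 0.05 and 3 with an adjusted p under 0.05. These 3 were LOC790811 (adjusted p = 0.000400), PALMD (adjusted p = 0.0196) and SCEL (adjusted p = 0.0373), all lower in the upper cows. In 62 genes (0.665%) every upper cow lay above every lower cow, and in 62 others (0.665%) below. Log2 fold changes are given as upper minus lower with the standard error (SE), and their median over all genes tested was 0.12. It was 0.08 without cow 3280 and 0.02 in the cows between, so most genes were positive in each. Counts of positive genes in a list are read beside that.

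Sizes differed by direction. The 38 genes with higher values had log2 fold changes of 0.60 to 4.77 in size, with a median of 1.08, and the 54 with lower values had 0.58 to 5.34, with a median of 1.74. Low expression was common among the latter: in 33 of the 54 the mean CPM was under 10 in both groups, against 5 of the 38. All 38 and all 54 kept their direction without cow 3280, and 30 and 40 of them kept a p under 0.05. The genes had been chosen by p on the same cows, so this adds no support.

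Among genes with higher values in the upper cows, the lowest p belonged to PHGDH, the enzyme that opens serine synthesis from glycolytic carbon. PHGDH measured 27.2, 37.9, 63.9 and 32.4 CPM in upper cows 2920, 3057, 3064 and 3280, and 19.9, 14.6, 15.5 and 25.2 CPM in lower cows 2893, 3135, 3369 and 3407. Every upper cow was above every lower cow, although 2920 and 3407 nearly met. The means were 40.3 ± 16.3 and 18.8 ± 4.84 CPM (SD), and the log2 fold change was 1.11 (SE 0.33, unadjusted p = 0.00788). PHGDH had a log2 fold change of 0.05 between HY and LY in the cows between (SE 0.45).

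DHDDS, which takes part in making the dolichol carrier used for N-glycosylation of secreted proteins, was the most even of these genes within the upper group. It measured 15.0, 15.4, 14.6 and 13.6 CPM in the upper cows (same order of cows) and 6.41, 10.4, 7.26 and 7.33 CPM in the lower cows. The gap between the groups exceeded the range within the upper cows. Its log2 fold change was 0.91 (SE 0.33) with all 8 cows and 0.94 without cow 3280.

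ABCA9, of the ABCA family of lipid transporters, measured 7.20, 4.50, 4.42 and 9.04 CPM in the upper and 1.26, 2.56, 3.00 and 2.23 CPM in the lower cows. Its log2 fold change was 1.49 (SE 0.51), on as few as 11 counts in a library. Between HY and LY in the cows between, the sign was the opposite, at -0.43 (SE 0.65).

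SF3B3, a subunit of the SF3b splicing complex, measured 209, 222, 222 and 152 CPM in the upper cows and 144, 132, 115 and 133 CPM in the lower cows. Cow 3280 was the lowest upper cow, and the log2 fold change was 0.63 (SE 0.25), or 0.74 without it. COPA, the alpha subunit of the COPI coat that returns cargo from the Golgi, measured 343, 326, 410 and 509 CPM against 178, 276, 296 and 229 CPM. Here cow 3280 was the highest, and the log2 fold change of 0.71 (SE 0.31) became 0.55 without it, with an unadjusted p of 0.0845. The other genes named in this direction were DCP1A of mRNA decapping (0.68, SE 0.28), the mitotic spindle protein NUMA1 (0.60, SE 0.25), the nuclear export receptor XPO4 (0.68, SE 0.30), the MAP kinase phosphatase DUSP4 (0.73, SE 0.28), the sorting nexin SNX29 (1.57, SE 0.65) and CCDC134 (1.27, SE 0.52). Of these, XPO4 had an unadjusted p of 0.0503 and filled the last place by the absence of overlap. In the cows between, DUSP4 (-0.25) and XPO4 (-0.11) had the opposite sign. The same sign was found for DHDDS (0.07), SF3B3 (0.27), COPA (0.27), DCP1A (0.18), NUMA1 (0.06), SNX29 (0.94) and CCDC134 (0.12).

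Interferon-induced antiviral genes formed part of the group with higher values. OAS1X, an oligoadenylate synthetase, measured 45.0, 16.4, 12.4 and 19.1 CPM in the upper cows against 1.72, 8.48, 10.5 and 6.34 CPM in the lower cows. The groups did not overlap, and the log2 fold change was 1.80 (SE 0.63). Its near relatives in the genome share sequence with it, so the division of reads among them is uncertain. Of the 11 genes of the interferon list that were tested, 3 had p under 0.05 and higher values (OAS1X, OAS2 and MX2) and none lower. The median over the list was 0.28 beside 0.12 over all genes. Without cow 3280 it was 0.56, beside 0.08 over all genes, and 5 of the 11 (with MX1 and OAS1Y added) had p under 0.05 and higher values. MX2 measured 156, 89.4 and 277 CPM in upper cows 2920, 3057 and 3064 but 19.4 in cow 3280, against 10.4, 54.7, 41.3 and 31.8 CPM in the lower cows. STAT2, which carries the type I interferon signal to the nucleus and is named here after its values were seen, measured 186, 106 and 88.0 CPM in the same 3 upper cows and 2.75 CPM in cow 3280. In the lower cows it measured 27.4, 17.6, 8.99 and 2.48 CPM. The list was not uniform, since ISG15 measured 192, 169, 87.5 and 276 CPM in the upper and 884, 99.9, 150 and 129 CPM in the lower cows. None of the 11 genes had p under 0.05 in the cows between, where the list median was -0.02. OAS1X (-0.80, SE 0.81), OAS2 (-0.43) and MX2 (-0.47) each had the opposite sign there.

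**Figure D2:**
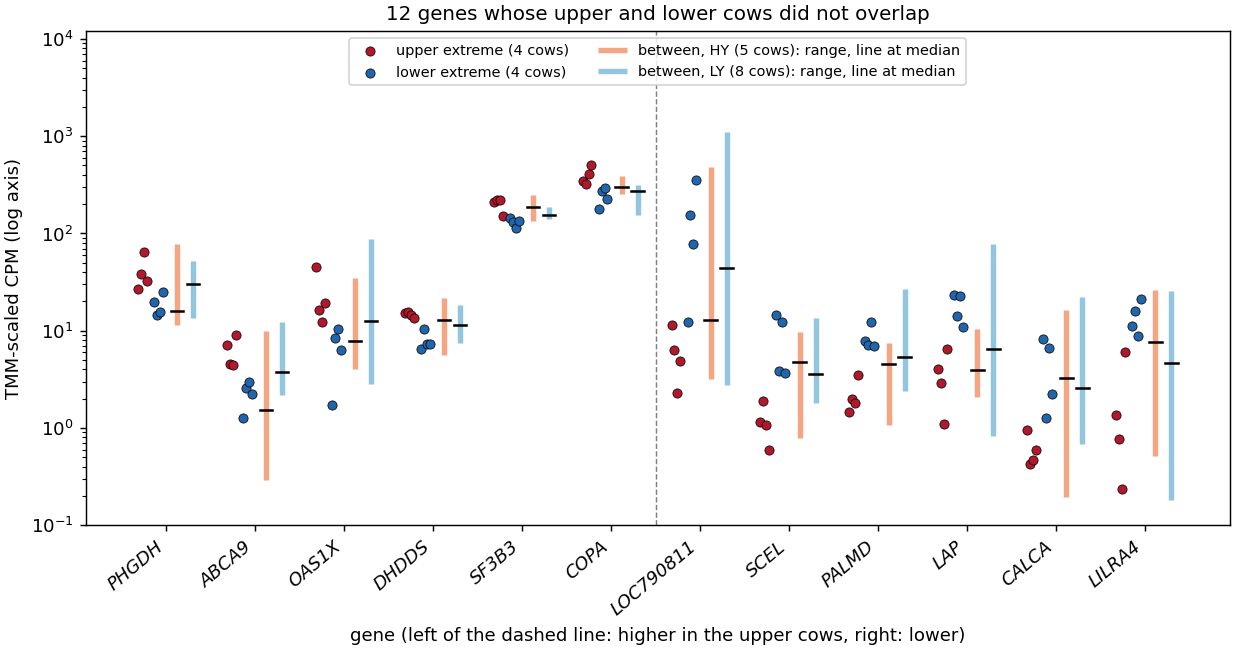
CPM (log axis, scaled with the TMM factors of edgeR) of 12 genes whose upper and lower cows did not overlap, with 1 point per extreme cow and the range and median of the cows between. In SCEL the upper cows lie at 0.589 to 1.90 CPM under the lower cows at 3.69 to 14.5, while the HY and LY cows between overlap, at 0.784 to 9.72 and 1.80 to 13.6 CPM.

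Genes with lower values in the upper cows were led by LOC790811, a locus that the files give no gene name. It measured 11.4, 6.4, 2.29 and 4.91 CPM in the upper cows and 12.3, 155, 77.4 and 352 CPM in the lower cows. Cow 2893 all but met cow 2920, and the other 3 lower cows were far higher. The log2 fold change was -4.51 (SE 0.95, unadjusted p = 0.000941). Among the cows between it spread from 3.21 to 478 CPM in HY and from 2.76 to 1105 CPM in LY. The median of each of these groups lay above the lowest lower cow, 2893, so the overlap with the lower extreme was not limited to single cows.

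Several of the genes that followed are known from epithelia. SCEL encodes sciellin, of the cornified envelope, and measured 1.16, 1.90, 1.07 and 0.589 CPM in the upper cows against 14.5, 3.84, 12.2 and 3.69 CPM in the lower cows. Its log2 fold change was -2.83 (SE 0.66), on as few as 3 counts in a library. HY and LY cows between differed by -0.04 (SE 0.62), and the difference between both contrasts had an unadjusted p of 0.00857 in edgeR, which did not pass adjustment. That contrast reuses the difference for which SCEL was chosen, so its p adds no support. LAP, the lingual antimicrobial peptide, is a beta-defensin made by bovine epithelia under bacterial challenge. It measured 4.03, 2.88, 1.10 and 6.48 CPM in the upper and 23.1, 14.1, 22.7 and 11 CPM in the lower cows. The highest upper cow lay clearly below the lowest lower cow, and the log2 fold change was -2.29 (SE 0.59, unadjusted p = 0.00335). LAP also had the same sign in the cows between, at -1.69 (SE 0.87, unadjusted p = 0.0708). There it ranged from 2.06 to 10.4 CPM in HY and from 0.819 to 78.0 CPM in LY, so the groups overlapped. Beta-defensins are a multigene family in cattle, and reads shared among copies may be lost or divided.

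PALMD, which encodes palmdelphin, measured 1.46, 1.97, 1.81 and 3.54 CPM in the upper and 7.90, 7.12, 12.2 and 7 CPM in the lower cows. The lower cows were at about the same level in 3 of 4 cases, and the log2 fold change was -1.98 (SE 0.48). CALCA, the gene of calcitonin and its related peptide, measured 0.942, 0.422, 0.473 and 0.589 CPM against 8.13, 1.28, 6.69 and 2.23 CPM. Cows 2893 and 3369 were high and the other 2 lower cows were closer to the upper range (log2 fold change -2.87, SE 0.76). LILRA4, of a leukocyte receptor family with many related members, measured 1.37, 0.773, 0.237 and 6.09 CPM against 11.1, 15.9, 8.76 and 21.2 CPM. Cow 3280 was the highest upper cow, and the log2 fold change of -2.79 (SE 0.90) became -4.12 without it.

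Single lower cows carried some of the remaining genes. SERPINB8, a serine protease inhibitor, measured 41.3 CPM in cow 2893 but 5.12 to 6.34 CPM in the other lower cows, against 0.868 to 3.73 CPM in the upper cows. EAF2 measured 12.1 CPM in cow 2893 and 3.22 to 4.00 CPM in the other lower cows, against 0.196 to 1.93 CPM. MITD1, of the last step of cell division, was steadier, with 13.4 to 15.1 CPM in the upper and 22.5 to 40.2 CPM in the lower cows (log2 fold change -0.96, SE 0.30). The zinc finger gene ZNF226 (-1.31, SE 0.40), the vesicular monoamine transporter SLC18A2 (-1.31, SE 0.45) and the lysyl oxidase family gene LOXL4 (-2.76, SE 0.95) completed the 12 genes named in this direction. In the cows between, MITD1 (0.16), EAF2 (0.61), SERPINB8 (0.49), SLC18A2 (0.41), LILRA4 (0.33) and CALCA (0.09) had the opposite sign. The same sign was found for LOC790811 (-1.10), LOXL4 (-0.86), PALMD (-0.85), ZNF226 (-0.77), LAP and SCEL. Since the 24 genes were chosen for the absence of overlap, an exact permutation test over the 70 arrangements of 4 and 4 cows gives each its smallest two-sided p of 0.0286 by construction, which adds no support.

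Genes of milk secretion were divided within the upper group, since cow 3280 and the other upper cows lay at opposite ends. Among the milk proteins, kappa-casein CSN3 took 0.291%, 0.0550%, 0.425% and 8.01% of the counts in upper cows 2920, 3057, 3064 and 3280. In lower cows 2893, 3135, 3369 and 3407 it took 3.36%, 1.62%, 3.63% and 1.70%. LALBA, which confers lactose synthesis on the galactosyltransferase, took 0.177%, 0.0102%, 0.265% and 5% against 3.03%, 0.367%, 1.63% and 0.388%. The 3 upper cows lay below all lower cows for both genes. In CPM, this order held for 628 of all genes tested (6.73%), and the opposite order for 521 (5.59%). With all 8 cows none of the 7 milk protein genes had p under 0.05, 6 had a positive log2 fold change, and the median was 0.31. Without cow 3280, all 7 had p under 0.05 and lower values, with a median of -3.83. All 7 were positive in the cows between, with a median of 1.69, or 0.54 without cow 3262.

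Leaving out cow 3280 changed the count for the whole table. Of 9460 genes then tested, 912 had p under 0.05, 295 of them higher (3.12%) and 617 lower (6.52%) in the remaining 3 upper cows. The lowest adjusted p of edgeR was 0.241, so the number under an adjusted p of 0.05 was again 0. Leaving out any of the other 7 cows gave 49 to 119 genes with p under 0.05.

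**Figure D3:**
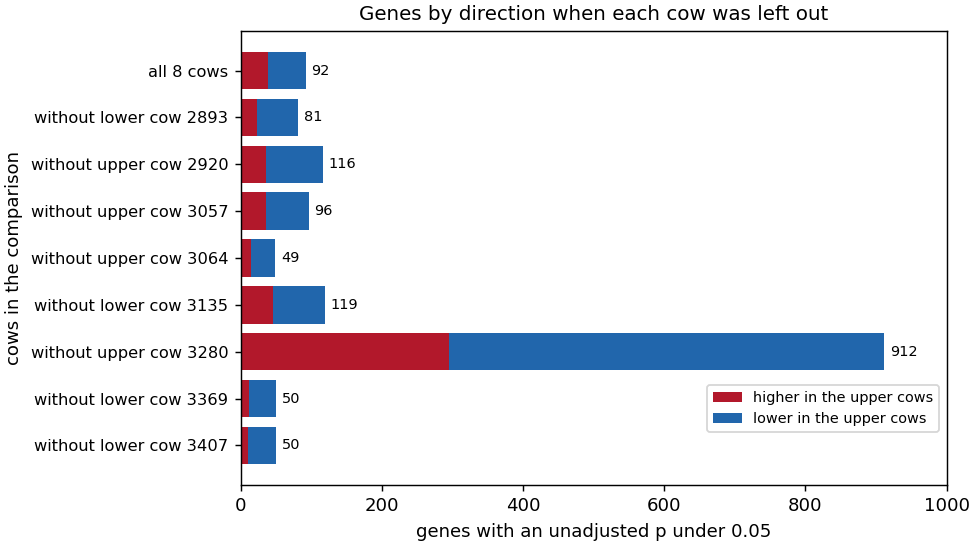
Number of genes with an unadjusted p under 0.05 in edgeR, by direction, with all 8 cows and with each cow left out in turn. The bar without cow 3280 reaches 912 genes, and all others lie between 49 and 119.

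The following 4 genes, known from secretory epithelium, had p under 0.05 and lower values without cow 3280. They are named here after their values were seen. LTF, lactoferrin, measured 108, 117 and 66.4 CPM in upper cows 2920, 3057 and 3064, 872 CPM in cow 3280, and 743, 412, 733 and 849 CPM in the lower cows. PIGR, the receptor that carries immunoglobulin into milk, measured 17.3, 5.98, 28.4 and 543 CPM in the upper cows and 263, 99.2, 324 and 128 CPM in the lower cows. LPO, lactoperoxidase, measured 6.21, 4.29, 12.5 and 602 CPM against 265, 45.0, 162 and 47.7 CPM. SCGB1D, of the secretoglobins, measured 3.73, 1.97, 5.48 and 251 CPM against 116, 43.5, 128 and 45.9 CPM. In each of these the upper cow 3280 was higher than every lower cow and its 3 companions were lower. Those 3 cows lay below every lower cow in 628 of all genes tested (6.73%), whatever the level of cow 3280.

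Mammary epithelial markers followed the same division. Their summed level was 166 to 176 CPM in cows 2920, 3057 and 3064, 4274 CPM in cow 3280 and 397 to 1786 CPM in the lower cows. Of 12 markers tested none had p under 0.05 with all 8 cows (median -0.16, or 0.40 with lactation period as a covariate). Without cow 3280, 6 had p under 0.05 and lower values (median -1.54), among them KRT19, EPCAM and CLDN3. KRT19, a luminal keratin, measured 32.9, 42.0 and 42.8 CPM in the 3 upper cows and 2047 CPM in cow 3280, against 969, 152, 572 and 165 CPM. The marker FOXA1 had 0 counts in every upper cow, which allows up to 3 counts in a library, and at most 5 counts in a lower cow. The part that the number of epithelial cells has in the milk gene differences was not tested.

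Genes of the milk fat globule also moved with cow 3280. Their summed level was 5059 to 6090 CPM in the other 3 upper cows, 49020 CPM in cow 3280 and 4923 to 21166 CPM in the lower cows, so the 3 upper cows lay within the range of the lower cows. Over 8 genes the median was 0.62 with all 8 cows and -2.79 without cow 3280, when 5 genes (BTN1A1, MFGE8, MUC1, CIDEA and FABP3) had p under 0.05 and lower values and 2 of the 8 were positive. FABP3, a fatty acid carrier, measured 434, 109, 347 and 16291 CPM in the upper and 12143, 475, 4847 and 536 CPM in the lower cows. PLIN2, which coats lipid droplets also in macrophages, was not low in the upper cows, with 1294, 1842, 1868 and 14651 CPM against 2019, 1129, 1639 and 787 CPM. Among the cows between, PLIN2 was higher in HY by 0.70 (unadjusted p = 0.0382).

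Fat synthesis was mixed. Of 13 genes none had p under 0.05 with all 8 cows, and without cow 3280 FASN, SCD, ACSS2 and GPAM had p under 0.05 and lower values while the list median was -0.12. SCD, the desaturase of milk fat, measured 355, 128, 448 and 5617 CPM against 1671, 747, 2382 and 557 CPM. LPL, which frees fatty acids from plasma lipid, differed little, with 329, 833, 897 and 1106 CPM against 880, 673, 753 and 663 CPM. Among 6 genes of lactose synthesis, none had p under 0.05 with all cows, and only UGP2, which makes UDP-glucose, did without cow 3280 (-0.94). The glucose transporter SLC2A1 measured 67.1, 157, 134 and 57.4 CPM in the upper cows and 78.0 to 82.0 CPM in the lower cows, a narrow range that held none of the upper values.

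Prolactin and growth hormone signalling held 9 tested genes, none with p under 0.05 and a median of 0.61. Without cow 3280 the median was -0.52, with 4 of 9 positive, and IGF1R was higher and ELF5 lower with p under 0.05. ELF5, the transcription factor of alveolar cells downstream of prolactin, measured 71.4, 5.77, 84.2 and 1766 CPM against 462, 168, 565 and 86.8 CPM. STAT5A, which transmits the prolactin signal and is also expressed in leukocytes, measured 164, 52.5, 45.6 and 51.1 CPM against 71.9, 43.6, 58.8 and 52.9 CPM. Cow 2920 was the highest, and the other 7 cows of both groups overlapped.

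Leukocyte lists differed among themselves. All 11 macrophage markers tested had a positive log2 fold change without cow 3280, 5 of them with p under 0.05 (CD163, CSF1R, C1QA, C1QB and C1QC), and the median was 0.97. With all 8 cows 9 were positive, none had p under 0.05 and the median was 0.65, which became -0.15 with lactation period as a covariate. C1QC, of the complement component that macrophages make, measured 16.4, 37.3 and 42.1 CPM in cows 2920, 3057 and 3064, 4.32 CPM in cow 3280 and 7.1 to 13 CPM in the lower cows. CD68 was less ordered, at 2173, 2410, 1251 and 774 CPM against 1297 to 1501 CPM. In the cows between, 6 of the 11 were positive and the median was 0.04.

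IL10, an anti-inflammatory cytokine, was the single cytokine or chemokine of 18 with p under 0.05, and it was higher in the upper cows. It measured 89.2, 41.5, 29.1 and 4.71 CPM against 13.5, 17.0, 13.5 and 11.7 CPM, with cow 3280 below every lower cow. The list median was 0.35, or 0.62 without cow 3280 and -0.37 with parity and lactation period as covariates. The log2 fold change of IL10 was 1.59 (SE 0.69), 1.96 without cow 3280, and -0.0589 with parity and lactation period as covariates. TGM2, NOS2 and TLN1, named here after their values were seen, behaved alike, since the 3 upper cows were above the lower cows and cow 3280 was below. Those 3 cows lay above every lower cow in 521 of all genes tested (5.59%), whatever the level of cow 3280. NOS2, which makes nitric oxide in activated macrophages, measured 149, 258 and 231 CPM in those 3, 21.0 CPM in cow 3280, and 58.9, 123, 69.8 and 75.2 CPM in the lower cows.

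Neutrophil markers showed no such order. Of 10 tested, none had p under 0.05 with all cows (median -0.23, or -0.02 without cow 3280, when LTF was lower with p under 0.05), and S100A12 measured 2110, 3220, 1493 and 1053 CPM against 3964, 2713, 1718 and 3206 CPM. T cell markers had none of 13 with p under 0.05 and a median of 0.38, which was 0.71 without cow 3280, -0.07 with parity and lactation period as covariates and -0.90 in the cows between. Cytotoxic lymphocyte markers (8 tested, median 0.23), fibroblast and endothelial markers (3 tested, median 0.10) and B and plasma cell markers (6 tested, median -0.38) also had none. The plasma cell gene IGJ did not overlap, with 2.16 to 5.41 CPM in the upper and 5.88 to 9.37 CPM in the lower cows. It went the other way in the cows between (2.70, unadjusted p = 0.00577), with 1 HY cow at 181 CPM.

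Cell cycle genes were positive throughout, with 16 of 16 log2 fold changes above 0 and a median of 0.85, although none had p under 0.05. RRM2, a subunit of ribonucleotide reductase, measured 63.8, 72.0, 228 and 23.6 CPM in the upper and 30.2, 55.8, 34.4 and 55.1 CPM in the lower cows. MCM7, of the replicative helicase, measured 62, 83.8, 132 and 34 CPM against 35.2, 42.9, 43.0 and 57.3 CPM. Both were highest in cow 3064 and low in cow 3280, and the groups overlapped through it. Without cow 3280, 7 of the 16 had p under 0.05 and higher values (median 1.17). With lactation period as a covariate the median of the 8 cows was -0.24. The cows between had 15 of 16 below 0 (median -0.51), with CCNB1, BUB1, PLK1 and TYMS lower in HY at p under 0.05.

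**Figure D4:**
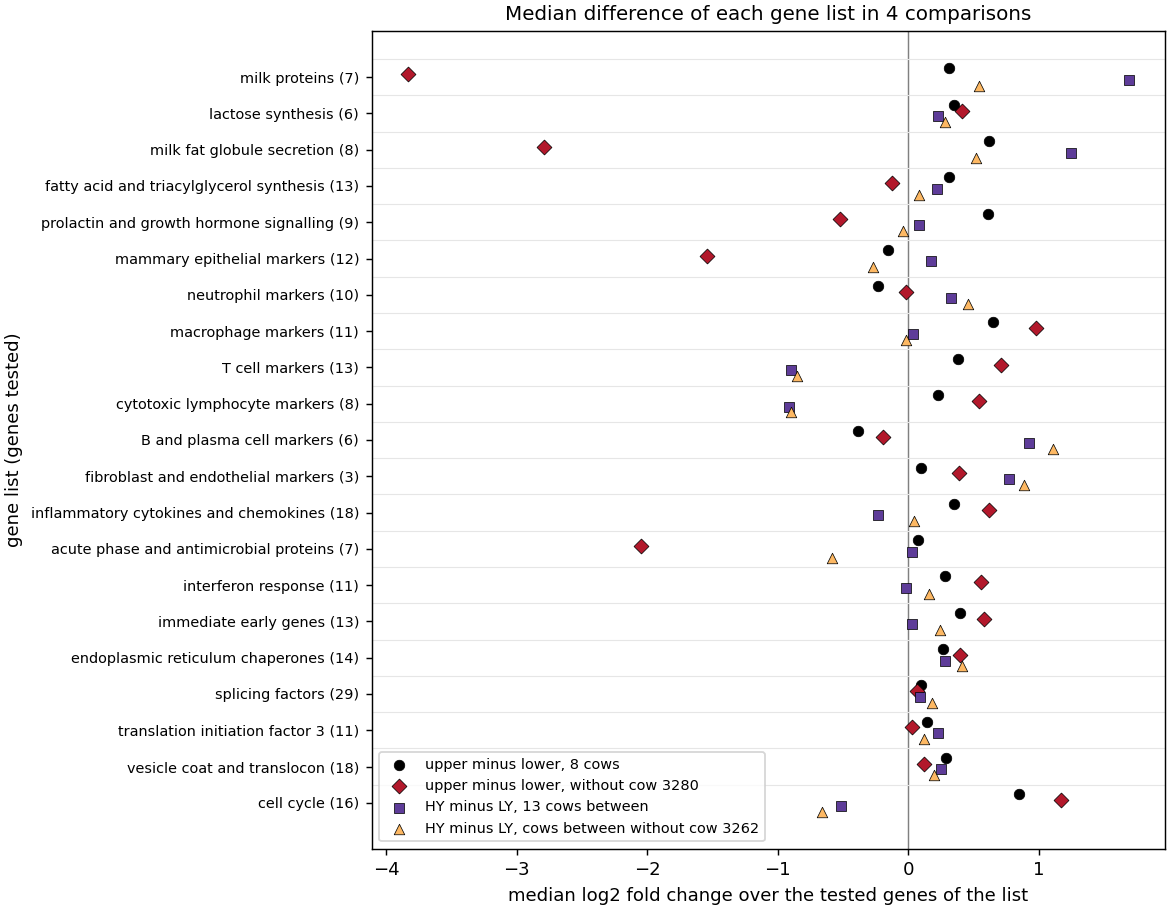
Median log2 fold change of the tested genes of each list (number in brackets) with the 8 extreme cows, without cow 3280, in the 13 cows between, and in these without cow 3262. The milk protein median moves from 0.31 to -3.83 without cow 3280 while it is 1.69 in the cows between, and the cell cycle median is 0.85 and 1.17 in the extremes but -0.51 and -0.66 in the cows between.

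Lists of general cell machinery held few genes with p under 0.05. Among 29 splicing factors SF3B3 alone had p under 0.05, and the list median was 0.09, under that of all genes. Of 11 subunits of translation initiation factor 3 none had p under 0.05 (median 0.14, or 0.03 without cow 3280, when EIF3M was lower with p under 0.05). EIF3L did not overlap, with 133, 189, 158 and 150 CPM against 120, 112, 114 and 121 CPM. Among 18 genes of vesicle coats and the translocon, COPA alone had p under 0.05 (median 0.29). Without cow 3280 the median was 0.12, no gene was higher with p under 0.05, and SEC61B and SEC61G were lower. The cows between had SEC24C, SEC61B and SEC61G higher in HY with p under 0.05. Endoplasmic reticulum chaperones had 13 of 14 log2 fold changes above 0 but none with p under 0.05 (median 0.27), and immediate early genes had 11 of 13 above 0 and none with p under 0.05 (median 0.40). Without cow 3280 the medians of these last lists were 0.39 and 0.58, with 3 chaperones and 1 immediate early gene higher at p under 0.05; with parity and lactation period as covariates they were -0.04 and -0.03. Acute phase and antimicrobial proteins had a median of 0.07 over 7 genes, and of -2.05 without cow 3280, when M-SAA3.2, LBP and LPO had p under 0.05 and lower values.

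Genes that the study itself had named for milk yield were selected on these cows, so their values describe the selection and are no independent support. Of 16 such genes 11 were tested, and COPA and SF3B3 (higher) and ZNF642 (lower) had p under 0.05. HNRNPL measured 231, 275, 316 and 278 CPM in the upper and 221, 207, 204 and 229 CPM in the lower cows, so that cows 2920 and 3407 nearly met. TOX4 measured 94.7, 91.5, 86.8 and 105 CPM against 73.7, 67.3, 78.4 and 60.0 CPM. ALB had 0 counts in every upper cow, which allows up to 3 counts in a library, and at most 7 counts in a lower cow. By qRT-PCR the study also reported HNRNPL, NOS3, SPTSSB, TOX4, KALRN, NLN and PMCH as associated with milk yield. SECTM1 was its example of a gene significant in the RNA-seq comparison of HY and LY but not in regression.

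The 13 cows between served as a separate reading of direction, since they took no part in choosing the 92 genes. By its medians, lactation period ran the opposite way there. It was 41 to 268 days in HY (median 101) and 102 to 270 days in LY (median 231.5). A change of direction between the extremes and the cows between therefore cannot be told apart from lactation stage. Between the 5 HY and 8 LY cows, 134 genes (1.44%) had p under 0.05 and higher and 142 (1.52%) lower values in HY, and 0 passed an adjusted p of 0.05 in edgeR. DESeq2 gave 388 genes with p under 0.05 and 0 with an adjusted p under 0.05. Of the 92 genes of the extremes, 50 had the same sign there, or 54.3% (95% exact binomial interval 43.6 to 64.8%, which treats genes as independent although they are not). Over all genes tested the share was 48%. The same sign was found for 18 of the 38 genes with higher and for 32 of the 54 genes with lower values. Only 2 of the 92 had p under 0.05 in the cows between, MIA with the same sign and the immunoglobulin gene IGLL1 with the opposite sign.

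MIA measured 1.80, 0.563, 1.66 and 1.96 CPM in the upper and 9.39, 2.24, 3.11 and 3.06 CPM in the lower cows. Its log2 fold changes in the extremes and in the cows between were -1.55 (SE 0.67) and -1.40 (SE 0.52, unadjusted p = 0.0168). In the cows between it ranged from 0.292 to 2.00 CPM in HY and from 0.948 to 3.97 CPM in LY, so the groups overlapped. It rested on 8 to 111 counts in the extreme libraries.

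**Figure D5:**
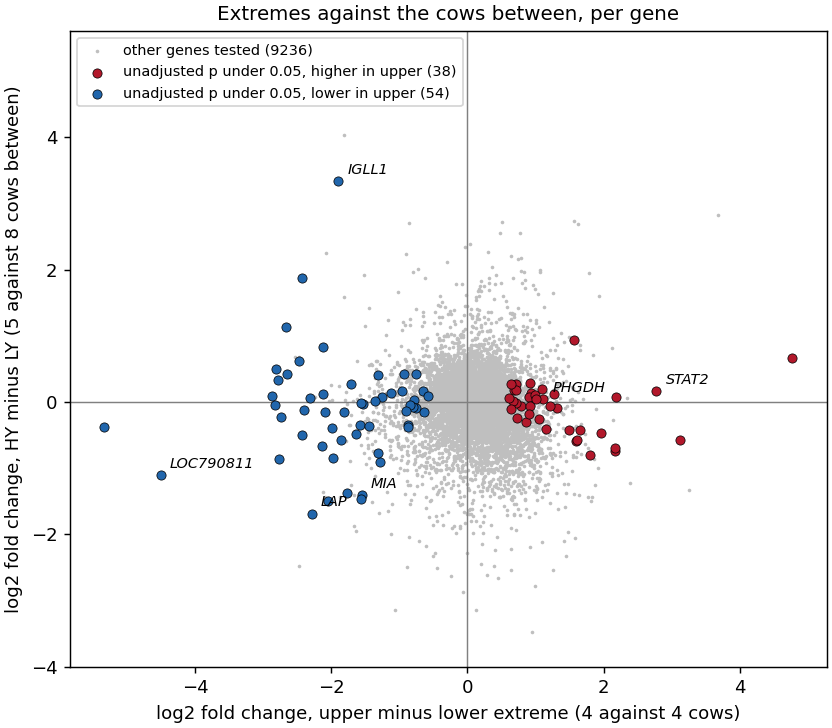
Log2 fold change of each gene between HY and LY in the 13 cows between against that between the upper and lower extremes, which share no cow. The 92 genes with p under 0.05 in the extremes scatter on both sides of 0 on the vertical axis, 50 of them with the same sign, and MIA and LAP lie below 0 on both axes.

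This reading depended on cows 3280 and 3262. Without cow 3280 in the extremes, 241 of 894 genes with p under 0.05 had the same sign in the cows between (27%), against 37.7% of all genes. When cow 3262 was left out as well, 436 of 894 had it (48.8%), against 46.9% of all genes. In this last setting the share was 189 of 293 for genes with higher and 247 of 601 for genes with lower values in the upper cows. Without cow 3280 alone it was 145 of 293 (49.5%) and 96 of 601 (16.0%). The shares over all genes were not split by direction. A slope on the breeding value within the cows between, in place of the HY and LY labels, gave the same sign for 45 of the 92 genes (48.9%). For the slope the share over all genes was not computed, so this count has no background beside it. A test of whether the difference in the extremes differed from that in the cows between gave 0 genes under an adjusted p of 0.05 in edgeR, and 149 before adjustment.

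Lactation stage moved with the groups, since 3 of 4 lower cows were sampled within 79 days and every upper cow at 108 days or later. With lactation period as a covariate 61 genes had p under 0.05, 17 of them among the 92, and 41 were higher and 20 lower in the upper cows. The 24 named genes kept their direction in that fit and in every other alternative in which they were tested. They had been chosen for the absence of overlap among the same cows, so their direction could hardly change and adds no support.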

How the data were processed

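RNA from milk somatic cells was sequenced on an Illumina platform. Per the study's methods and the submitters' processing notes, the authors trimmed reads with Trimmomatic, mapped them to bosTau7 with TopHat2 and Bowtie2, handled alignments with SAMtools and counted reads on genes with HTSeq. Tool versions and the strand setting are not given in the sources used here, so overlapping and antisense genes are uncertain. The authors deposited raw read counts per gene, without normalization, for each cow.

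From these counts, the summary lines and a row named null (0.0232% to 0.0686% of the counts) were left out. Of 13570 gene rows 12333 had a count, and 23 symbols that had turned into dates were not named. Reads with no feature were 13.0% to 31.9% per cow. Counts on genes, 9341401 to 28541904 in the 8 cows, set the precision. The 8 cows were fitted with edgeR 4.0.16 (R 4.3.3): TMM, filterByExpr with a minimum count of 10, glmQLFit and glmQLFTest, no covariate, and Benjamini-Hochberg adjustment. The SE is the size of the log2 fold change divided by the root of F. The 13 cows between were fitted separately over the same genes. CPM used TMM factors of all 21 cows, with a pseudocount of 0.5 on the log2 scale for the exact permutation tests. TMM factors were 0.498 for cow 3280 and 0.460 for cow 3262, so milk proteins are given as a percentage of counts.

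Named genes were the 12 per direction of lowest p, without overlap where the adjusted p missed 0.05, then 3 genes of each list (the 2 highest in CPM and the lowest in p), the genes named by the study, and those with p under 0.05 and the same sign in the cows between. The members and lists were chosen with earlier results of these data known. Alternatives were DESeq2 1.42.0, other size factors, other filters, covariates, all 21 cows in a shared fit, and each cow left out; 3 were chosen after seeing the data, namely the milk protein covariate, leaving out 3280 with 2893, and leaving out 3280 with 3262. The model code was tested on simulated data. The labels number no replicates, so no paired fit was made.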

Additional observations from a re-analysis of the deposited data

Results flagged for a closer look

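In groups of 4 to 10 cows, the gap of the highest or lowest cow to its neighbour was set against the range of the group (Dixon's ratio, 95% critical value). Of 142 groups of values examined, 12 exceeded it, and chance alone exceeds it in about 1 in 20 groups. Cow 3280 stood highest in the upper group for the milk protein share (56.4%, ratio 0.909), and for the summed levels of milk fat globule genes (0.918), fat synthesis genes (0.854), mammary epithelial markers (0.982) and vesicle coat genes (0.862). It stood lowest for SF3B3 (0.847). Cow 2893 stood highest in the lower group for immediate early genes (0.916), SERPINB8 (0.902) and EAF2 (0.845). Cow 3057 stood lowest in the upper group for MIA (0.842). In the cows between, cow 2814 stood highest in HY (0.865) and cow 3198 lowest in LY (0.646) for B and plasma cell markers. Causes were not tested.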

How the results depend on the processing

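Of the extremes, the number of genes with p under 0.05 (92) became 187 without a filter on low counts, 174 with DESeq2, which also gave 3 genes under an adjusted p of 0.05, and 61 with lactation period as a covariate. Settings chosen after seeing the data gave 270 with the milk protein share as a covariate, and 927 without cows 3280 and 2893, when 1 gene passed adjustment. Leaving out each cow gave 49 (without 3064) to 912 genes (without 3280), and 50 without 3369 or without 3407; 0 genes passed adjustment, or 1 without cow 2893. Other size factors gave 94, a minimum of 10 counts in every cow 79, parity with lactation period 76, and all 21 cows in a shared fit 130 genes. Shared with the 92 were 17 genes under the lactation covariate, 22 with parity added, 70 without cow 3280 and 26 without cow 3064. Cows 2920 and 3407 had the highest mapping rates of the 8 cows in the study's own listing. Without them only 7 of 71 genes were higher in the upper cows. With the lactation covariate 41 of 61 were, against 38 of 92 in the main fit. The cause was not tested. Of 86 named genes tested, 24 changed sign with parity and lactation period, among them IL10 (-0.0589), and 10 without cow 3280. Of 22 list medians, 8 changed sign with parity and lactation period, 4 with lactation period alone, 8 with the milk protein share as a covariate, 6 without cow 2920 and 5 without cow 3280.

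In the cows between, the 276 genes became 553 without the filter on low counts, and 156 (without 3272) to 494 (without 3161) when each cow was left out, with 174 without 2864, 458 without 2814 and 440 without 3014. The share with the same sign, 54.3%, became 43.4% with parity and lactation period, and 27% (without 3280) to 64.0% (without 2893) when single cows were left out, with 40.2% without 2814. LY cows 3272, 7628 and 7643 had higher mapping rates in the study's listing than all other cows between. In the cows between, HY and LY thus also differed in mapping rate. The share was 45.6% without these cows and without extreme cows 2920 and 3407. No paired analysis was possible because the labels give the cows no shared replicate numbers. With 4 cows a group, a difference in a gene of few counts, such as SCEL or CALCA, rests on single reads in some libraries.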
